A study of Homo sapiens with 5 samples.

Results

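The sites described here are places in the genome of LNCaP cells where histone H3 phosphorylated at threonine 6 (H3T6ph) was called and the lysine demethylase LSD1 was not. They were chosen by the called positions of peaks in 3 lists, that is, by measured overlaps, and these overlaps are therefore given as a description. A peak was kept when it lay on chromosomes 1 to 22 or X, shared no base with an LSD1 peak of LNCaP or of a second prostate cancer line, VCaP, and shared no base with a gene interval of the study's RNA table. Of 4460 H3T6ph peaks, 1491 met these conditions, which is 33.4% with a 95% Wilson interval of 32.1 to 34.8%. This interval, like the others below, covers counting error only. A further 1466 peaks were free of LSD1 but lay inside genes, 770 overlapped LSD1 outside genes and 702 overlapped LSD1 inside genes. The remaining 31 peaks lay on other chromosomes.

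The study asked about LSD1 in androgen signalling and held 5 samples, each the only sample of its group. The peak lists come from chromatin immunoprecipitation with sequencing (ChIP-seq), in which an antibody collects the DNA bound to a protein or mark. They cover H3T6ph in LNCaP, LSD1 in LNCaP and LSD1 in VCaP, all in cells without transfection, with 4460, 11673 and 9854 peaks. The RNA libraries were made from LNCaP transfected with an siRNA against LSD1 and from LNCaP transfected with a control siRNA. Per the labels' protocols, cells of both lines spent 3 days in phenol-red-free medium with charcoal-stripped serum, which is low in steroid hormones, ahead of a hormone stimulus that the labels do not name. LNCaP is a line from a lymph node metastasis of a prostate carcinoma, and VCaP a line from a vertebral metastasis. Both depend on androgen signalling. With 1 sample per group, no value has an error between replicates and no difference was tested.

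H3T6ph is placed by protein kinase C, and the phosphate sits close to lysine 4, the residue that LSD1 demethylates. In prostate cancer cells the mark is known to keep LSD1 from removing the methyl groups of lysine 4, and it has been described as a signal that turns LSD1 from a repressor into a coactivator. Distal enhancers, where the pioneer factor FOXA1 binds, lie mostly in introns and between genes, often far from the promoter they act on.

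A small number of the sites lay directly in front of a gene interval, and for these the promoter sequence of the gene could be read. For 12 genes with a promoter in the RefSeq table, a site ended within 250 bases of the start side of the gene interval. The promoters below are those of the 4 such genes with the closest sites among those whose interval in the RNA table differs from the RefSeq gene by at most 200 bases in length. The window shown runs from 250 bases before to 50 bases after the RefSeq start. Distances of sites were measured to the interval of the RNA table, whose start can differ from the RefSeq start. For PHLPP1 that interval was 265005 bases long, against 264893 for the RefSeq gene. Whether a site reaches the window was not checked. Each is the RefSeq sequence of GRCh38.p14, read 5′ to 3′ on the strand of the gene. Capitals mark CCGGAA, the core bound by ETS factors.
GLCCI1, chr7:7968546-7968845, plus strand: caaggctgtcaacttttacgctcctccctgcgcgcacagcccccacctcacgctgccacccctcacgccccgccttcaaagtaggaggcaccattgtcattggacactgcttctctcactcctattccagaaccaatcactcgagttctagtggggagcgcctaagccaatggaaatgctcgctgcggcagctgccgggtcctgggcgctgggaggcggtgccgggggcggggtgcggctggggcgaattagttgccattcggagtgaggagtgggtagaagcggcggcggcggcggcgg
SELENOS, chr15:101277436-101277735, minus strand: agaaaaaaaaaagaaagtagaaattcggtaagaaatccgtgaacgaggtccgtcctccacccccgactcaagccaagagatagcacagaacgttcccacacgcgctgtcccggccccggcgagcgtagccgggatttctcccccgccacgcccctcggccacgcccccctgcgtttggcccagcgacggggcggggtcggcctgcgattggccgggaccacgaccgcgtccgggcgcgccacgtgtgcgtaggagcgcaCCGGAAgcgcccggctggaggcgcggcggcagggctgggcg
PHLPP1, chr18:62715291-62715590, plus strand: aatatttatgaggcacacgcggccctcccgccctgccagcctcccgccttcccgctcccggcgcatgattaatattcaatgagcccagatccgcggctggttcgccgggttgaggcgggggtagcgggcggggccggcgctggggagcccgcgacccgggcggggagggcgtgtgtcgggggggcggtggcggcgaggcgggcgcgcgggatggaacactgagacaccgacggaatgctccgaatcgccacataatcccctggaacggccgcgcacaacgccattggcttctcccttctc
YPEL5, chr2:30146757-30147056, plus strand: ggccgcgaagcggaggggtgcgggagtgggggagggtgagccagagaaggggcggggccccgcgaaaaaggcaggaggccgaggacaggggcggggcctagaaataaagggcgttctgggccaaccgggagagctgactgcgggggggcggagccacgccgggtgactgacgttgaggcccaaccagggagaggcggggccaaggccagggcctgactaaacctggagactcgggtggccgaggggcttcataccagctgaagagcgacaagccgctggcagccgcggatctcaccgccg

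The site next to GLCCI1, a glucocorticoid-induced gene, lay at chr7:8007928-8008352 (hg19) and ended 21 bases from the gene interval, with a score of 51.1. SELENOS encodes a selenoprotein of the endoplasmic reticulum, and its site at chr15:101817751-101818235 lay 50 bases away with a score of 67.1. The sites of PHLPP1, a phosphatase gene of the AKT pathway (chr18:60381971-60382516), and of YPEL5 (chr2:30369144-30369584) lay 155 and 165 bases away, with scores of 52.1 and 50.7. All 4 are rich in G and C, at 64.3, 68.3, 69.3 and 70.0% in the order shown, and hold 24, 40, 37 and 25 CpG dinucleotides. Over the 12 promoters the median G and C content was 69.0%, against a median of 58.7% (quartiles 47.0 to 68.0%) over all 35116 promoters of the table. The limit on the difference in length was set for the 4 printed promoters and not for the 12. Some of the 12 are therefore not shown to be the sequence beside a site.

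Searched on both strands, CCGGAA was in 3 of the 12 promoters (SELENOS, ECI1 and PHF19) and in 17.2% of all promoters. The PHF19 interval of the RNA table was 21676 bases long, against 48478 for the RefSeq gene. The PHF19 promoter is therefore not shown to be the sequence beside its site. The full androgen response element, an inverted repeat with a spacer of 3 bases, was in none of the 12 and in 1 promoter of the whole table (0.00285%). The single arm of that repeat, AGAACA, which the full element contains, was in none of the 12 and in 14.8% of all promoters. The same held for the FOXA1 motif TGTTTAC (3.42% of all promoters) and the GATA motif AGATAA (10.3%). These letters describe the windows only, and the sequence under the sites was not used here.

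All 4 neighbouring genes were transcribed. GLCCI1 was at 2.88 FPKM with LSD1 siRNA and 2.44 FPKM with control siRNA, where FPKM is the fragment count scaled to transcript length and library size. SELENOS was at 45.1 and 50.3 FPKM, PHLPP1 at 7.25 and 5.97 FPKM, and YPEL5 at 32.0 and 31.5 FPKM in the same order. None of these pairs of values differed by as much as 1.5-fold.

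The sites scored somewhat lower and were somewhat narrower than their own list as a whole. That list, sites included, had a median score from the authors of 60.8 (quartiles 54.2 to 76.5) and a median width of 466 bases (393 to 583). The median score of the sites was 57.9 (quartiles 53.3 to 67.5), where the lowest score in the list was 50. The highest score of a site was 405. The LSD1-free sites inside genes had nearly the same quartiles, with a median of 58.0 (53.2 to 67.7). H3T6ph peaks that overlapped LSD1 outside genes had a median of 71.6 (58.9 to 94.8), and intervals for the medians, 57.4 to 58.4 and 69.7 to 73.7, were apart. Scores under 60 were given to 57.9% of the sites (55.4 to 60.4%), against 27.8% (24.7 to 31.1%) of the outside peaks with LSD1.

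Median width was 439 bases (quartiles 380 to 533) at the sites and 534 bases (427 to 663) where LSD1 was also called outside genes. Widths of 1000 bases or more were reached by 10 sites (0.671%), against 46 peaks (5.97%) of the set with LSD1. A wide peak is more likely to touch another list by position alone, so width and the absence of LSD1 are not independent. Score and width went together only loosely among the sites, with a Spearman coefficient of 0.24 over 1491 peaks of 1 library.

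The share of outside peaks that were free of LSD1 was higher at lower scores. It was 43.9% (39.9 to 48.0%) in the highest-scoring of 4 equal groups of the 2261 outside peaks, 60.7% (56.6 to 64.6%) in the next, 79.6% (76.1 to 82.8%) in the one after that and 79.5% (76.0 to 82.6%) in the lowest. Over all outside peaks it was 65.9% (64.0 to 67.9%). A called list leaves out weak binding, so a site without an LSD1 peak may still carry LSD1 below the calling threshold.

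**Figure D1:**
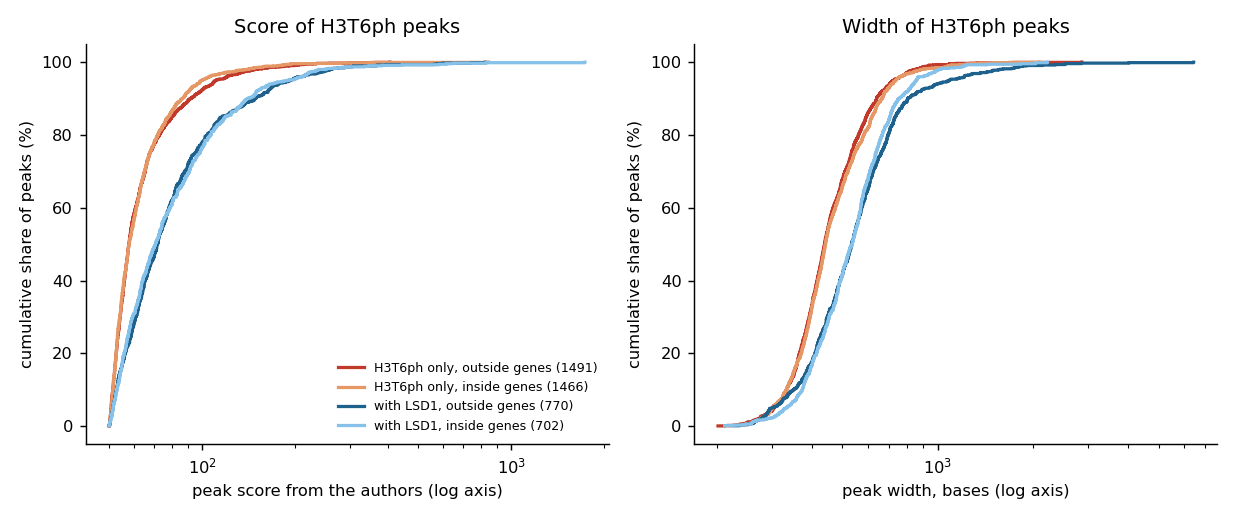
Cumulative share of H3T6ph peaks (percent) against the authors' peak score (left, log axis) and peak width in bases (right, log axis), for the 1491 H3T6ph-only sites outside genes, the 1466 inside genes, and the 770 and 702 peaks that overlap LSD1 outside and inside genes. The curves of both LSD1-free sets lie on each other up to a score of about 60, and both lie to the left of the sets with LSD1, toward lower scores and widths, over most of the range.

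A tail of strong sites was present all the same. Scores of 100 or more were given to 113 sites (7.58%, 6.34 to 9.03%), more than the 72 LSD1-free peaks inside genes (4.91%, 3.92 to 6.14%) and fewer than the 171 outside peaks with LSD1 (22.2%, 19.4 to 25.3%). The highest-scoring site lay at chr2:11638462-11639201 with a score of 405, 32.2 kb from E2F6, which encodes a repressive E2F factor, and 6.83 kb from a VCaP LSD1 peak. The next, at chr13:111489476-111490805, scored 361 and was 25.5 kb from PRECSIT, a long noncoding RNA gene. A site of 1649 bases at chr20:52811250-52812898, score 343, lay 11.6 kb from the start side of the prefoldin gene PFDN4 and 3.92 kb from a VCaP LSD1 peak.

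The sites that came next by score were far from any LSD1 peak of VCaP. The fourth, at chr6:15036926-15037500 (score 298), lay 209 kb from JARID2, which encodes a subunit of Polycomb repressive complexes, and 3575 kb from VCaP LSD1. The fifth, at chr16:85499402-85500179 (score 256), lay 145 kb from GSE1, a gene linked to LSD1 corepressor complexes, and 753 kb from VCaP LSD1, while LNCaP LSD1 was 19.5 kb away. The sixth, at chr20:46704275-46705413 (score 234), lay 180 kb from VCaP LSD1 and 434 kb from LNCaP LSD1.

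Another 3 of the 10 highest-scoring sites were at chr9:138284069-138284864 with a score of 233, at chr8:102478901-102479287 with 227 and at chr8:102132808-102133315 with 213. The first of these is nearest to an accession without a symbol in the name table. The site with a score of 227 lay 25.4 kb from GRHL2, an epithelial transcription factor gene at 36.4 FPKM with LSD1 siRNA and 44.7 FPKM with control siRNA. The 10 sites were at least 11.6 kb from a gene interval, and none had an LNCaP LSD1 peak closer than 19.5 kb.

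The sites lay at a median of 43.7 kb from the nearest gene interval, with quartiles of 14.0 and 135 kb and an interval for the median of 39.6 to 48.8 kb. The outside peaks with LSD1 lay at a median of 39.6 kb (quartiles 11.7 to 114 kb, interval 33.8 to 46.2 kb), so the medians were not told apart. A gene within 1 kb was less frequent at the sites, 40 of 1491 or 2.68% (1.98 to 3.63%), than at outside peaks with LSD1, 38 of 770 or 4.94% (3.62 to 6.70%), with intervals that overlap by a narrow margin. Within 20 kb the shares were 31.6% (29.3 to 34.0%) and 35.7% (32.4 to 39.2%). More than 500 kb separated 91 sites (6.10%) and 44 outside peaks with LSD1 (5.71%) from any gene.

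Score did not follow the distance to genes. The median score was between 57.1 and 58.4 in each of 6 distance bands from under 1 kb to over 500 kb, and the Spearman coefficient between score and distance was -0.02 over the 1491 sites. Width was a little lower far from genes, with a median of 412 bases over 500 kb away against 452 bases within 1 kb. Where the RefSeq table gave a strand, 19 of 26 sites within 1 kb of a gene (73.1%, 53.9 to 86.3%) lay on its start side, as did 17 of 26 outside peaks with LSD1. Within 20 kb the start side held 173 of 332 sites (52.1%, 46.7 to 57.4%), near an even split.

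The sites farthest from genes were at chr5:164815525-164816066, 1869 kb from MAT2B, and at chr4:132269406-132269763, 1801 kb from the protocadherin gene PCDH10. Another site with MAT2B as its nearest gene, at chr5:164713746-164714019, was 1767 kb away. Their scores, 69.4, 59.2 and 57.3, were ordinary for the set. The closest site, at chr16:30621686-30622032 with a score of 90.0, ended 3 bases from the zinc finger gene ZNF689. The next lay 5 bases from EYA1 (chr8:72109292-72109662). Of the sites, 13 lay in stretches whose genes the RNA table lists on alternative contigs, 6 of them on chromosome 6 in and beside the major histocompatibility complex. For these, being outside genes means only outside the table's intervals. Just outside the rule were peaks that shared 15 bases with S100P (chr4:6694998-6695580) and 24 bases each with ZNF792 (chr19:35454930-35455217) and ZNF175 (chr19:52074217-52074554). Their scores were 79.0, 52.7 and 54.2.

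An LSD1 peak was seldom close to the sites, where the rule fixes only that it does not overlap. How far a position picked at random lies from LSD1 was not computed, so the distances below show no avoidance of LSD1. The nearest LSD1 peak of either line lay at a median of 39.7 kb from the sites (quartiles 13.7 to 98.0 kb, interval for the median 36.1 to 43.3 kb) and at 33.0 kb (13.6 to 76.3 kb, 30.7 to 36.2 kb) from LSD1-free peaks inside genes. No LSD1 peak of either line was within 100 kb of 367 sites (24.6%, 22.5 to 26.9%), against 252 peaks inside genes (17.2%, 15.3 to 19.2%).

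At short distances the comparison with LSD1-free peaks inside genes differed between the lines, while at the sites themselves the intervals of the lines overlapped. An LNCaP LSD1 peak within 5 kb was found at 69 sites (4.63%, 3.67 to 5.82%), against 104 peaks inside genes (7.09%, 5.89 to 8.52%). A VCaP LSD1 peak within 5 kb was found at 83 sites (5.57%, 4.51 to 6.85%), against 53 peaks inside genes (3.62%, 2.77 to 4.70%). Thus LNCaP LSD1 was nearby less often at the sites than at their counterparts inside genes, and VCaP LSD1 more often, though the VCaP intervals overlap at their edges. At 20 kb the shares kept these directions, with 17.8 and 22.2% for LNCaP LSD1 and 19.9 and 17.2% for VCaP LSD1. The Spearman coefficient between score and distance was -0.16 for VCaP LSD1 and -0.10 for LNCaP LSD1, both weak, over peaks that share 1 H3T6ph library.

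At the edge of the rule, a site at chr6:53329691-53330112 with GCLC as its nearest gene stopped 15 bases short of a VCaP LSD1 peak, and one at chr1:59536871-59537561 stopped 22 bases short of an LNCaP LSD1 peak. A site at chr1:1838082-1838451 was 37 bases from VCaP LSD1. Their scores were 83.2, 101 and 50.8. On the other side of the rule, outside peaks at chr2:67673628-67674071 shared 14 bases with LNCaP LSD1, and peaks at chr8:141489657-141490145 and chr10:130058219-130058736 shared 18 and 61 bases with VCaP LSD1. Their scores were 51.7, 81.7 and 53.4, a range that overlaps that of the sites at the edge. So few peaks cannot show whether score differs across the edge.

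**Figure D2:**
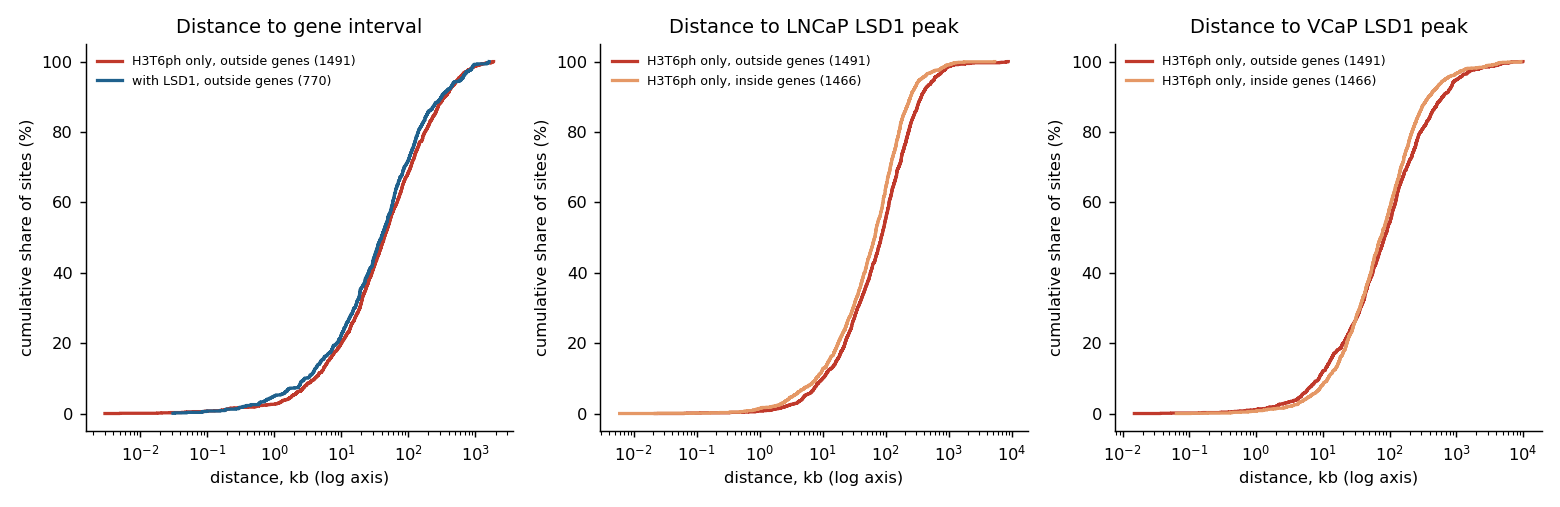
Cumulative share of sites (percent) against the distance in kb on a log axis, to the nearest gene interval (left, sites and outside peaks with LSD1), to the nearest LNCaP LSD1 peak (middle) and to the nearest VCaP LSD1 peak (right), where the sites are drawn with LSD1-free peaks inside genes. The curve of the sites lies to the right for LNCaP LSD1 at every distance drawn above about 1 kb, with medians of 84.5 and 66.5 kb, and the VCaP curves cross, with medians of 83.6 and 73.6 kb.

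Most sites stood alone. Another H3T6ph peak of any kind lay within 10 kb of 109 sites (7.31%, 6.10 to 8.74%), against 90 LSD1-free peaks inside genes (6.14%, 5.02 to 7.49%) and 101 outside peaks with LSD1 (13.1%, 10.9 to 15.7%). In bins of 1 Mb, 739 bins held a single site, 211 held 2, 60 held 3, 25 held 4, and 8 held from 5 to 9. Sites within 10 kb of each other formed 31 chains, of which 30 had 2 sites and 1 had 3.

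A bin at chr13:110000001-111000000, between MYO16, IRS2 and COL4A1, held 9 sites. It had 13 H3T6ph peaks, 3 LNCaP LSD1 peaks and 11 VCaP LSD1 peaks, with a median site score of 66.7. The strongest of its sites, at chr13:110007961-110008545 with a score of 165, chr13:110189484-110190421 with 162 and chr13:110652020-110652557 with 144, lay 148 to 216 kb from a gene. IRS2, the insulin receptor substrate gene, was at 2.88 FPKM with LSD1 siRNA and 2.80 FPKM with control siRNA, and the collagen gene COL4A1 was near 0, at 0.0433 and 0.0191 FPKM. The next 2 bins toward the end of the chromosome held 4 sites each, with top scores of 361 and 205.

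A bin at chr2:20000001-21000000 had 6 H3T6ph peaks, all of them sites, with 9 LNCaP LSD1 and 2 VCaP LSD1 peaks. The nearest genes of its sites were LAPTM4A, PUM2 and RHOB, 11.8 to 54.0 kb away. Its scores were even, with a top score of 82.4 and a median of 74.4. RHOB, a small GTPase gene, was at 79.4 FPKM with LSD1 siRNA and 61.9 FPKM with control siRNA, with a site 11.8 kb from its start side. A bin at chr3:75000001-76000000 also had 6 sites, all with scores under 60, and ZNF717 was the nearest gene of 4 of them.

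Chromosome 20 had 2 such stretches. In chr20:46000001-47000000 were 5 sites with a top score of 234, 37.0 to 283 kb from their nearest genes, which were SULF2, LINC00494 and NCOA3, a steroid receptor coactivator gene. In chr20:52000001-53000000 were 4 sites with a top score of 343, 11.6 to 88.0 kb from their nearest genes, among them ZNF217, PFDN4 and the vitamin D hydroxylase gene CYP24A1. ZNF217, a transcriptional regulator gene, was at 65.8 FPKM with LSD1 siRNA and 73.5 FPKM with control siRNA, while CYP24A1 was near 0, at 0.0512 and 0.0951 FPKM.

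In the stretch chr8:128000001-129000000, around the noncoding RNA genes PCAT1 and PVT1, 4 sites were found, 3 of them with scores of 104 to 142. PVT1 was at 13.8 FPKM with LSD1 siRNA and 15.1 FPKM with control siRNA, and PCAT1 was listed at 0 in both libraries. Bins with 5 sites also lay at chr7:61000001-62000000, next to the centromere, at chr14:106000001-107000000, in the immunoglobulin heavy chain region, and at chr9:110000001-111000000, where KLF4 was the nearest gene of 4 sites at 51.7 to 598 kb. The widest site of all, 2860 bases at chr2:133018515-133021374 with a score of only 66.2, lay 2.97 kb from MIR663B. The next in width, 1727 bases at chr18:18510942-18512668, lay 17.0 kb from ROCK1 near the centromere. Whether repeated sequence bears on these sites was not tested.

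Of the 30 chains of 2 sites, 4 were picked with their values in view, because their genes belong to hormone, growth factor or stress pathways. Sites at chr2:11670800-11672972, with a top score of 101, lay 1.27 kb from GREB1, a gene induced by estrogen and androgen, which was at 16.4 FPKM with LSD1 siRNA and 19.5 FPKM with control siRNA. Sites at chr22:29209647-29215956, also with a top score of 101, lay 13.1 kb from XBP1, a factor of the unfolded protein response, at 84.1 and 95.1 FPKM. Sites at chr18:46517049-46523641, top score 130, lay 40.0 kb from SMAD7, and sites at chr7:75936132-75944047, top score 53.1, lay 2.52 kb from HSPB1, a small heat shock protein gene.

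Per 10 Mb of chromosome outside gene intervals, 8.16 sites were found on chromosomes 1 to 22 and X together. Chromosome 20 had the highest value, 13.2 (47 sites), followed by chromosome 8 with 12.2 (109 sites). Chromosome X had the lowest, 3.18 (34 sites), and chromosome 4 followed with 4.84 (60 sites). Of LSD1-free peaks, the share outside genes was 50.4% (48.6 to 52.2%) in all, 66.7% on X, 65.3% on chromosome 13, 37.1% on chromosome 19 and 29.3% on chromosome 17. Of the span of these 4 chromosomes, 69.2, 69.5, 51.1 and 48.4% lay outside gene intervals in the same order. These shares of peaks are therefore not separate from gene coverage. Chromosome 21 departed from that order, with 71.4% of its span and 45.8% of its LSD1-free peaks outside genes. The spans include unsequenced gaps, and copy number was not measured here.

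**Figure D3:**
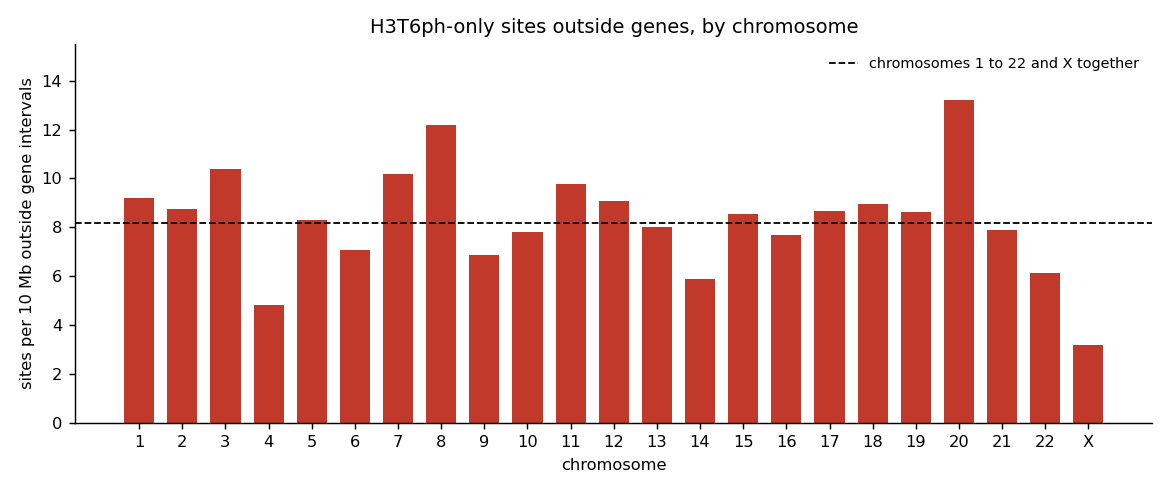
H3T6ph-only sites per 10 Mb outside gene intervals (vertical axis) for each chromosome (horizontal axis), with a dashed line at 8.16 for chromosomes 1 to 22 and X together. Chromosomes 20 and 8 stand highest, at 13.2 and 12.2, and chromosome X lowest, at 3.18.

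KDM1A, the gene of LSD1, was at 6.87 FPKM with LSD1 siRNA and 37.0 FPKM with control siRNA (log2 -2.27). The libraries carried the transcripts of luminal prostate cells. All 8 luminal markers looked at were expressed, from HOXB13 at 68.6 FPKM with LSD1 siRNA and 77.5 FPKM with control siRNA to KLK3, which encodes prostate-specific antigen, at 1941 and 2474 FPKM. Of the other markers looked at, neuroendocrine SYP was highest, at 1.07 and 1.05 FPKM, while neuroendocrine CHGA was at 0.0213 and 0.0329 FPKM. Basal KRT14 was at 0.739 and 0.507 FPKM, and basal KRT5 at 0.0187 and 0.0577 FPKM. Endothelial PECAM1 was at 0.129 and 0.0926 FPKM. Stromal COL1A2, immune CD3E and endothelial CDH5 were listed at 0 in both. From the most frequent ratio of low values, the LSD1 siRNA library had an estimated 77.3% of the depth of the control library, and the depth of the ChIP libraries is unknown.

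A gene was called near when its interval came within 20 kb of a site, which held for 720 of 22889 genes (3.15%), 583 of them protein-coding. These genes were expressed about as often as genes at large. With control siRNA 56.2% (52.6 to 59.8%) were at 1 FPKM or more, against 55.2% of all genes, and among protein-coding genes the shares were 62.6% (58.6 to 66.4%) and 62.0%. The share was 67.3% (65.0 to 69.5%) near LSD1-free peaks inside genes and 68.7% (63.7 to 73.3%) near outside peaks with LSD1, with intervals that overlap that of the sites. Near peaks with LSD1 inside genes it was 71.3% (68.2 to 74.3%), and there the intervals were apart. A peak inside a gene counts that gene as near, which the sites by definition cannot do. Among expressed protein-coding genes, those near the sites had a median of 15.8 FPKM with control siRNA (quartiles 7.17 to 36.3), against 13.2 FPKM (5.54 to 29.4) for all.

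Expression of the nearest gene differed with its distance. Of protein-coding genes nearest to a site within 1 kb, 34 of 38 (89.5%, 75.9 to 95.8%) were at 1 FPKM or more with control siRNA, against 31 of 42 (73.8%, 58.9 to 84.7%) for outside peaks with LSD1. From 1 to 5 kb the order was turned round, with 71 of 123 (57.7%, 48.9 to 66.1%) at the sites and 73.1% (61.5 to 82.3%) where LSD1 was present. The shares were 60% and 62.3% from 5 to 20 kb, and 56.8% and 61.2% from 20 to 100 kb. Beyond 500 kb 23 of 58 genes nearest to a site were expressed (39.7%, 28.1 to 52.5%), a share below that of all protein-coding genes. In every distance band the intervals of the sites and of the outside peaks with LSD1 overlapped.

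**Figure D4:**
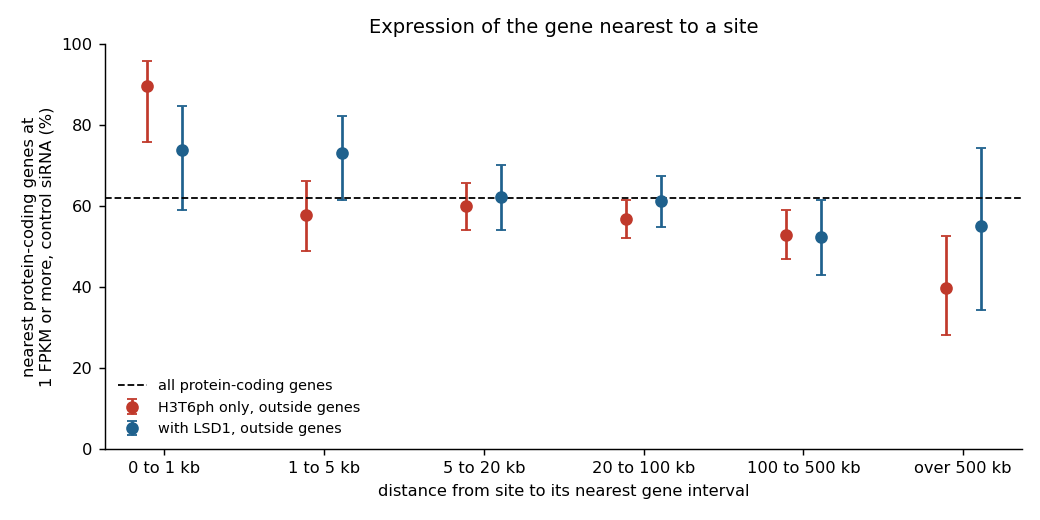
Share (percent) of nearest protein-coding genes at 1 FPKM or more in the control siRNA library (vertical axis) by distance from site to gene (horizontal axis), for H3T6ph-only sites outside genes and for outside H3T6ph peaks with LSD1, with 95% Wilson intervals as bars and a dashed line at the share of all protein-coding genes, 62.0%. The sites are at 89.5% within 1 kb and at 39.7% beyond 500 kb, and the bars of the 2 sets overlap in each band.

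The most abundant protein-coding message near a site was that of the ribosomal protein gene RPLP1, at 2222 FPKM with LSD1 siRNA and 2122 FPKM with control siRNA. The luminal keratin KRT8 came next, at 718 and 929 FPKM in the same order, and its partner KRT18 was at 461 and 620 FPKM. The keratin genes share 1 site, at chr12:53365328-53366085 with a score of 75.4, 18.6 kb from their interval. Ubiquitin UBB (654 and 671 FPKM), prosaposin PSAP (518 and 439 FPKM), MARCKSL1 (390 and 414 FPKM) and HSPB1 (525 and 359 FPKM, log2 0.55) were also among the highest. Among the 8 highest genes of any type were also the small nucleolar RNA genes SNORD63 and SNORD2 and the microRNA gene MIR3677, but FPKM of RNAs this short measure their level poorly.

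Some genes that define the luminal prostate cell were among the neighbours. Of 8 luminal markers, 3 lay within 20 kb of a site, namely FOXA1, KRT8 and KRT18, where 3.15% of all genes did. KRT8 and KRT18 share 1 site, so these genes are not independent, and the list is too short to show a preference. FOXA1, the pioneer factor of prostate enhancers, had a site 0.777 kb past its end, at chr14:38057145-38057979 with a score of 51.4, and was at 137 FPKM with LSD1 siRNA and 163 FPKM with control siRNA (log2 -0.25). Of 62 measured genes on a list of genes known to be induced by androgen, KRT8, KRT18 and ZNF350 were near a site. The list is not complete, since GREB1, described above, was near a site but is not on it. ZNF350, at 28.9 and 29.9 FPKM, had one of 968 bases at chr19:52463500-52464467, 3.12 kb from its end. Of 24 genes reported as repressed by androgen, DDC was near a site, at 33.2 FPKM with LSD1 siRNA and 40.5 FPKM with control siRNA (log2 -0.28).

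Some genes of the H3T6ph and LSD1 machinery were near a site, where 3.15% of all genes were. Of 14 protein kinase C and related genes, PRKCD was near one. The PRKCD site, at chr3:53184249-53184840 with a score of 71.0, lay 10.4 kb from its start side, and the gene was at 42.3 and 45.8 FPKM. Of 25 measured genes of LSD1 and its complexes, HDAC1 and MTA1 were near one, at 11.6 and 10.0 kb. HDAC1, the deacetylase of the CoREST and NuRD complexes, was at 131 FPKM with LSD1 siRNA and 93.0 FPKM with control siRNA (log2 0.49). MTA1, a NuRD subunit, was at 42.7 and 38.5 FPKM (log2 0.15). No gene of these lists near a site passed 2-fold. None of the 3 basal, 2 neuroendocrine, 2 stromal, 2 immune and 2 endothelial markers looked at was near one. With 3.15% of all genes near a site, lists this short cannot show an absence.

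As a group, genes near the sites had almost the same median difference between the RNA libraries as all genes. Over the 415 near genes with at least 1 FPKM in one library or both, the median log2 fold change of LSD1 siRNA over control siRNA was -0.004, with quartiles of -0.155 and 0.133. Over all 12916 such genes it was -0.011, with quartiles of -0.146 and 0.120. Past 2-fold on the log2(FPKM + 1) scale, 5 near genes were higher (1.20%), where 0.844% of all genes were, and 10 were lower (2.41%), where 1.13% of all genes were. Together these are 15 genes, where 1.97% of all genes passed 2-fold in either direction, and all 15 were short RNA genes. Over all genes 255 of 12916 passed, but only 28 of the 11753 protein-coding genes among them did. The share over all genes is thus not matched to short RNA genes, whose own share was not computed. These counts therefore show no excess near the sites. SNORD63, at 807 FPKM with LSD1 siRNA and 2026 FPKM with control siRNA, was the most abundant of them, and MIR3677, MIR1205, MIR4492, MIR4429 and MIR3671 were listed at 0 with LSD1 siRNA. The others lower were MIR940, SNORA58, SNORA63 and SCARNA13, and the higher ones were SNORA60, SNORA84, SNORA17A, MIR4513 and MIR4782. The authors' deposited table called none of these.

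None of the 370 protein-coding genes near a site passed 2-fold, where 0.238% of all protein-coding genes did. At 1.5-fold, 2 were higher, where 1.04% of all were, and 1 was lower, where 1.18% were. HSPB8, a small heat shock protein gene 7.11 kb from a site, was at 11.7 FPKM with LSD1 siRNA, against 6.45 FPKM with control siRNA (log2 0.77). TSPAN15, a tetraspanin gene 11.8 kb from a site, was at 55.1 FPKM with LSD1 siRNA, against 33.2 FPKM with control siRNA (log2 0.72). DYNLL2, a dynein light chain gene 7.10 kb from a site, was at 70.5 FPKM with LSD1 siRNA, against 119 FPKM with control siRNA (log2 -0.75). Each of these values rests on 1 library per group, and in bulk RNA fewer cells with a transcript and less of it per cell cannot be told apart.

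A called accession in the authors' deposited table was found for 5 near genes, where 0.906% of all genes had one. DYNLL2 was one of them, with a q-value of 0.0386 in the authors' deposited table. In the others a single transcript was called, and the sum over the gene's accessions differed by less than 1.5-fold. The called accession of SLC12A8 was at 5.12 FPKM with LSD1 siRNA and 0.501 FPKM with control siRNA (q 0.00303 in the authors' deposited table), while the gene's accessions summed to 6.96 and 7.54 FPKM. In the authors' deposited table the called accession of QTRT2 was at 4.15 and 0.713 FPKM (q 0.0112), against sums of 6.03 and 7.47 FPKM. That of ZNF382 was at 3.60 and 0.827 FPKM (q 0.00541 in the authors' deposited table), against sums of 3.60 and 3.22 FPKM. ACSF3 had one at 3.61 and 7.87 FPKM (q 0.0386 in the authors' deposited table), against sums of 8.55 and 7.87 FPKM.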

How the data were processed

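The series covers 3 ChIP-seq peak lists and 2 RNA-seq libraries of established prostate cancer lines, with 1 sample per group. The tools listed, without roles, are Cuffdiff 2.0.1, TopHat2 2.0.4, Bowtie2 2.0.0 and MACS2, and the build is hg19, per the submitters' processing notes. Each peak carries a score from the authors with a lowest value of 50 in each list, and the scale of that score is not stated, so scores were compared within the H3T6ph list only. For the control track and duplicate reads, the sources used here give nothing. Expression was deposited as FPKM per RefSeq accession and library, and the p-value and q-value per accession are the authors' own, per the file headers. Single-library values of the authors were not averaged.

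Overlap meant at least 1 shared base, counted in Python 3.11.15 and checked against bedtools 2.31.1. Distances count the bases between a peak and the nearest interval. Of 40253 accessions, 38934 (96.7%) were matched to a symbol through the RefSeq table of GRCh38.p14, which gave names, gene types and strands. RefSeq of that build also gave the promoter sequences and gene lengths. Its gene positions were used to find the 13 sites in stretches with genes on alternative contigs. Overlaps and distances of sites used the intervals of the RNA table only for genes. FPKM were summed per symbol, 42 genes with a failed accession were left out, and genes with at least 1 FPKM in one library or both entered the comparison. Differences are log2(FPKM + 1), LSD1 siRNA over control siRNA, a scale that understates the change of low genes. Genes were called by a fixed 2-fold size, since no test is possible with 1 library per group. The calculations were tested on simulated data. Shares carry 95% Wilson intervals, and intervals for medians are binomial intervals of the order statistics. Both treat peaks as independent, which neighbouring peaks are not. Depth of the ChIP libraries is unknown, and that of RNA was estimated from the ratio shared by 489 accessions, which put 1 read at 1.29 times the value in the LSD1 siRNA library.

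Sites were named by rule: the 10 highest scores, the 3 widest, the 3 farthest from a gene, the 3 closest to LSD1 and to a gene with the 3 just past each limit, the largest chain, and sites within 20 kb of a listed gene. Genes were named as the nearest to such a site, as list members near a site, as the 8 highest in control FPKM near a site, or as near genes that were called. Results that rest on a few genes, some sites these rules select among them, are not reported here, and those genes were left out of the lists. The dense bins, the 1.5-fold genes and the pairs were added after values were seen. The sites and lists were chosen with earlier results of these data known. Alternatives to the overlap rule, the gene intervals, the score threshold, the distances, the filter, the pseudocount and the call are given in the closing section.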

Additional observations from a re-analysis of the deposited data

How the results depend on the processing

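Of 61 alternative settings, 43 left their value within its counting interval, or within 1.5 times for a count, and 18 moved it. In the upper score range of the H3T6ph list there were 593 sites, with a median score of 72.7 and a median width of 500 bases. Their median distance to LSD1 was 29.3 kb, and 11.1% had another H3T6ph peak within 10 kb. Of their 172 near genes, 8 passed 2-fold, where 1.97% of all genes did, a share not matched to short RNA genes. That setting selects on the score itself. When LSD1 counted only with at least 50% of each peak shared, the median score was 58.6 and the distance to LSD1 28.7 kb, since 1772 sites then included some that touch LSD1. With NM accessions alone as genes the median distance to a gene was 54.0 kb. Another H3T6ph peak was within 5 kb of 3.02% and within 50 kb of 25.2% of sites.

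The share of near genes at 1 FPKM or more was 50.9% for the nearest gene within 100 kb, 43.9% for single accessions and 62.6% for protein-coding genes, an alternative added after seeing the data. The count past 2-fold, 15 of 415 genes at 20 kb, was 23 of 843 at 50 kb, where 1.97% of all genes passed. That share is not matched to short RNA genes, so neither count shows an excess. The count past 2-fold was 0 of 370 for protein-coding genes, where 0.238% of all passed. By the authors' own call it was 5 of 415, against 0.906% of all genes. For single accessions it was 46 of 588, and the share over all accessions was not computed, so that count shows no excess or lack. The median log2 fold change stayed between -0.0205 and 0.0023. Leaving out the 13 sites in stretches with genes on alternative contigs, also added later, left 1478 sites with the same median width of 439 bases.

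No paired analysis was possible because each group held 1 sample and no result comes from a test. Replicates could not be left out for the same reason. The base composition and motifs of the sites themselves were not run, since no genome of the files' build was used here. Unknown ChIP depth limits every statement that LSD1 is absent.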

Other observations

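Sites in and beside the major histocompatibility complex on chromosome 6 were not described above by distance, because the RNA table lists most genes of that region on haplotype contigs. Of 40253 accessions, 484 are on other contigs, and 378 of these are on contigs of chromosome 6. The site with the highest score there lay at chr6:32424729-32425185, with a score of 130, and was 581 kb from LNCaP LSD1 and 496 kb from VCaP LSD1. Sites at chr6:30719283-30719854 and chr6:30758579-30759219 scored 57.8 and 85.2, and their nominal distances to a table gene, 1765 and 1726 kb, have no meaning for genes of the region. Among the sites on other chromosomes in such stretches, one at chr17:44344510-44345105 scored 60.4 and lay 1.8 kb from LNCaP LSD1, with 19 genes listed on other contigs between its flanking genes.

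More pairs of sites than those named above were found beside genes of varied function, and they were picked with their values in view. The pair at chr9:130784351-130789606, with a top score of 156, lay 33.9 kb from NAIF1, and the pair at chr15:85836599-85840338, with a top score of 133, lay 83.5 kb from AKAP13, an anchor protein gene. A pair within 3.43 kb at chr19:15596427-15599858 lay 6.11 kb from PGLYRP2. The pair at chr7:72936812-72943163, with a top score of 84.9, began 0.196 kb from BAZ1B, a chromatin remodelling gene that was at 25.2 FPKM with LSD1 siRNA and 29.1 FPKM with control siRNA. The pair at chr9:33431224-33437623 lay 3.53 kb from the aquaporin gene AQP3, which was at 26.5 FPKM with LSD1 siRNA and 21.3 FPKM with control siRNA.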
